A study of Mus musculus with 9 samples.

Results

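The neuropeptide genes followed here are expressed in the mouse hypothalamus and were listed apart from the vasopressin, oxytocin, arcuate feeding and orexin genes. The genes were compared between Clic1 knockout (KO) and wild-type (WT) mice. They were chosen by name as Sst, Ghrh, Gal, Tac1, Penk, Nts, Adcyap1, Cck and Nucb2, and 9 of 9 were present among the 14351 genes of the deposited RNA sequencing table. The libraries came from hypothalamic RNA of male mice fed normal chow, 1 library per mouse, from 5 KO mice numbered 2, 4, 6, 8 and 10 and from 4 WT mice numbered 1, 3, 9 and 11. The KO lacks Clic1, a chloride intracellular channel protein, in the whole body rather than in the hypothalamus alone, and an age for these mice is not given in the sources used here. The labels give the strain C57b/6J, whereas the methods describe KO mice on a CD-1 background with WT littermates. A treatment note in the labels names perigonadal adipose tissue, whereas the tissue field reads hypothalamus. The labels of replicate 10 conflict, since its library name begins with K as in the KO mice while its title and treatment read WT. It was placed with KO by its library name, and its Clic1 level, given below, lay inside the KO range. Many values, but not all, are also given without it, and each KO mean and SD with n = 5 includes it.

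A neuropeptide is made as a longer precursor protein, cut by proteases inside secretory granules and released to act on receptors of other cells, most of them coupled to G proteins. In the hypothalamus, somatostatin and growth hormone-releasing hormone travel to the pituitary and oppose each other in the control of growth hormone. Within the brain, galanin, substance P, enkephalins, neurotensin, PACAP, cholecystokinin and nesfatin-1 act on feeding, body temperature, pain and stress. Several of these peptides share neurons with GABA or glutamate, and their transcripts are mostly short and abundant in the cells that make them.

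Values are read counts relative to library size (CPM) as normalized by the authors, and a log2 difference is the log2 fold change of KO over WT on the log2(CPM + 0.1) scale, with its standard error (SE). None of the 9 genes differed between KO and WT mice at an adjusted p of 0.05 (limma with Benjamini-Hochberg adjustment over all genes). Over all genes tested 41 passed, 0.286% of those tested, and at an unadjusted p of 0.05 the members again numbered 0 against 6.5% of all genes. Adjusted p for the 9 ranged from 0.794 to 0.994. The KO and WT libraries overlapped for each member, with no case of separated groups against 3.41% of all genes. Of the 9 log2 differences, 6 were below 0 and 3 above it, between -0.28 (Nts) and 0.24 (Ghrh) in KO minus WT, with a median of -0.075 against 0.00089 over all genes. The plot of values by library shows some overlap in each gene and 1 KO library, replicate 10, standing above the rest in several of them.

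**Figure D1:**
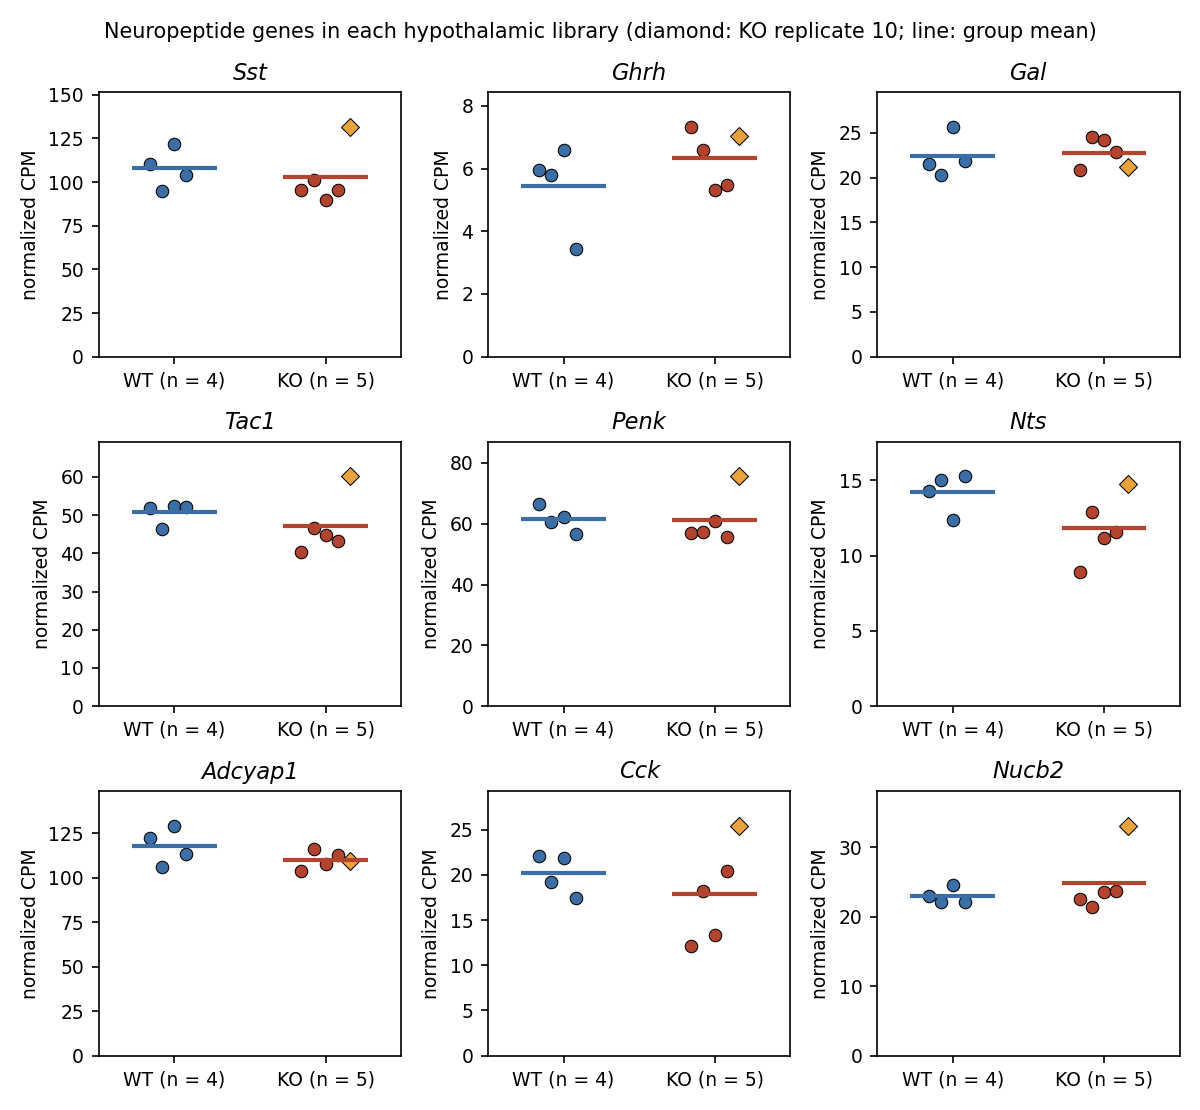
Normalized CPM (vertical axes, from 0) of the 9 neuropeptide genes in WT and KO libraries, where each point is 1 mouse, the lines are group means and the diamond is KO replicate 10. The groups overlap in each panel, and replicate 10 is the highest of the 9 libraries for Sst, Tac1, Penk, Cck and Nucb2.

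The tissue and the libraries were checked first. Clic1 was between 0.733 and 1.93 CPM in the KO libraries, against 3.58 to 5.52 CPM for WT, and replicate 10 was inside the KO range at 1.43 CPM. All 16 listed genes that mark hypothalamic neurons and nuclei were measured, none of them at 0 in any library. They summed to 737 to 886 CPM per KO library, highest in replicate 10, against 676 to 714 CPM for WT. The list includes Avp, the only one of the 16 past the adjusted threshold. Read totals estimated from the steps between low CPM values were 5.47 to 7.72 M in KO replicates 2, 4, 6 and 8, 20.8 M in KO replicate 10 and 7.27 to 11 M for WT. In a bulk sample, fewer cells that make a peptide and less RNA in each such cell cannot be told apart.

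Somatostatin and growth hormone-releasing hormone were measured at very different depth. Sst (ENSMUSG00000004366), on the minus strand of chromosome 16 from 23889573 to 23890958 of GRCm38, encodes the precursor of somatostatin, which inhibits the release of growth hormone and of many other peptides. Its normalized CPM was 95.7, 101, 89.9, 95.7 and 132 in KO mice 2, 4, 6, 8 and 10, and 111, 94.7, 122 and 104 in WT mice 1, 3, 9 and 11. Both the highest and the lowest value came from KO libraries, so the WT range lay inside that of KO. The means were 103 ± 16.7 CPM (SD, n = 5) for KO against 108 ± 11.5 CPM (SD, n = 4) for WT, a log2 difference of -0.075 (SE 0.11, 95% interval -0.32 to 0.17, limma adjusted p = 0.918). A two-sided exact permutation test of the libraries gave p = 0.54, where 5 against 4 libraries can reach 0.0159 at the least. Without replicate 10 the KO mean was 95.6 ± 4.61 CPM (SD, n = 4) and the log2 difference was -0.17 (limma unadjusted p = 0.03 and adjusted p = 0.397). Without WT replicate 9 it was -0.014, the value nearest 0 as each mouse was left out.

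Ghrh (ENSMUSG00000027643), on chromosome 2 from 157329497 to 157347506, minus strand, encodes the hormone that stimulates growth hormone release and is made by a small group of arcuate neurons. It had the lowest CPM of the 9 genes, with 7.34, 6.59, 5.31, 5.47 and 7.02 CPM in KO mice 2, 4, 6, 8 and 10, and 5.97, 5.8, 6.6 and 3.44 CPM in WT mice 1, 3, 9 and 11. WT replicate 11 was the lowest library and the others lay between 5.31 and 7.34 CPM. These values correspond to about 25 to 142 reads per library, and at 25 reads counting alone gives a coefficient of variation of 20%. The observed coefficient of variation was 14.4% in KO and 25.4% in WT mice. The log2 difference of 0.24 (SE 0.20) was the largest positive one of the 9 and had a 95% interval of -0.19 to 0.68 (limma adjusted p = 0.862, exact permutation p = 0.349). It was 0.041 without WT replicate 11 and 0.35 without WT replicate 9, the extremes found when 1 mouse at a time was left out.

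The 5 somatostatin receptors were all measured, at means of 1.94 to 12.7 CPM, and none passed the adjusted threshold. Sstr4 was the farthest from 0, at 5.39 ± 0.482 CPM (SD, n = 5) for KO against 4.02 ± 1.05 CPM (SD, n = 4) for WT. Its log2 difference was 0.44 (SE 0.18, limma unadjusted p = 0.0315 and adjusted p = 0.716), and WT replicate 9, at 5.5 CPM, lay among the KO values of 4.64 to 5.84 CPM. Sstr1, Sstr2, Sstr3 and Sstr5 had log2 differences of -0.025, -0.012, -0.026 and 0.014, and 0.0056, -0.0038, -0.049 and -0.089 without replicate 10. Ghrhr, the receptor through which GHRH acts on pituitary cells, was not analysed here.

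With all 9 libraries, galanin was the gene whose groups lay closest after Penk. Gal (ENSMUSG00000024907), on chromosome 19 from 3409915 to 3414544, minus strand, encodes a peptide found in many hypothalamic nuclei and known to stimulate feeding when injected. Its values were 20.9, 24.5, 24.2, 22.8 and 21.2 CPM in KO mice 2, 4, 6, 8 and 10, and 21.5, 20.3, 25.7 and 21.9 CPM in WT mice 1, 3, 9 and 11. The KO range lay inside the WT range, and replicate 10 sat within both. This gave a log2 difference of 0.025 (SE 0.097, limma adjusted p = 0.974, exact permutation p = 0.778), and the 95% interval of -0.19 to 0.24 corresponds to a KO level between 0.879 and 1.18 times that of WT. Without replicate 10 the log2 difference of Gal was 0.049, whereas Nucb2 was nearest 0 at -0.011 and Penk was at -0.088. Of its receptors, Galr1 was at 19 ± 3.78 CPM (SD, n = 5) for KO against 21.6 ± 1.97 CPM (SD, n = 4) for WT, with a log2 difference of -0.21 that became -0.079 without replicate 10. Galr2 and Galr3 were near 1 CPM, at means of 1.32 and 1.2 CPM over the 9 libraries, with 95% intervals of the log2 difference from -1.20 to 0.83 and from -0.70 to 0.61. Without replicate 10 their log2 differences were -0.35 and -0.074, against -0.19 and -0.048 with it.

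Tac1 (ENSMUSG00000061762), on chromosome 6 from 7554879 to 7565834, plus strand, encodes the precursor of substance P and neurokinin A. It was 40.3, 46.7, 44.7, 43.3 and 60.2 CPM in KO mice 2, 4, 6, 8 and 10, and 52, 46.4, 52.3 and 52.2 CPM in WT mice 1, 3, 9 and 11. KO replicates 2, 6 and 8 were below each WT library, KO replicate 4 was above WT replicate 3, and KO replicate 10 was above them all. With 5 KO mice the log2 difference was -0.12 (SE 0.11, 95% interval -0.36 to 0.11, limma adjusted p = 0.869, exact permutation p = 0.333). Without replicate 10 the KO mean was 43.7 ± 2.67 CPM (SD, n = 4) against 50.7 ± 2.88 CPM (SD, n = 4) in WT mice, and the log2 difference was -0.21 (SE 0.07, limma unadjusted p = 0.00708 and adjusted p = 0.25). The exact permutation p of that comparison was 0.0571, where 4 against 4 libraries can reach 0.0286. Leaving out KO replicate 2, the lowest library, gave the log2 difference nearest 0, at -0.069. Tacr1, the receptor of substance P, had a log2 difference of -0.24 (limma adjusted p = 0.801), and Tacr3, which prefers neurokinin B, had -0.25 (limma adjusted p = 0.857), and without replicate 10 these were -0.16 and -0.12. Tacr2 was not analysed here, and Tac2, the neurokinin B gene, had a log2 difference of -0.042.

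Penk (ENSMUSG00000045573), on chromosome 4 from 4133531 to 4138819, minus strand, encodes the precursor of Met- and Leu-enkephalin, the opioid peptides that act mainly on delta and mu receptors. Its CPM was 56.8, 57.3, 61, 55.7 and 75.7 in KO mice 2, 4, 6, 8 and 10, and 66.5, 60.5, 62.1 and 56.5 in WT mice 1, 3, 9 and 11. Replicate 10 was the highest, and the remaining KO libraries, at 55.7 to 61 CPM, lay in or just under the lower part of the WT range. The group means were 61.3 ± 8.28 CPM (SD, n = 5) and 61.4 ± 4.13 CPM (SD, n = 4), a log2 difference of -0.0094 (SE 0.096, 95% interval -0.22 to 0.20, limma adjusted p = 0.994), the smallest difference of the 9 genes. It was -0.088 without replicate 10, and its sign turned in 4 of the 9 cases of a mouse left out. Among the opioid receptors, Oprm1 (mu) was at 32.2 ± 8.18 CPM (SD, n = 5) for KO against 37.4 ± 1.44 CPM (SD, n = 4) for WT, and its log2 difference of -0.26 became -0.081 without replicate 10. Oprk1 (kappa) and Oprd1 (delta) had log2 differences of -0.092 and 0.033, which became 0.000076 and 0.14 without replicate 10. Pdyn, the precursor of the kappa ligand dynorphin, and Pnoc, that of nociceptin, had -0.027 and -0.076, and -0.042 and -0.17 without replicate 10.

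Nts (ENSMUSG00000019890) had the smallest p of the 9 genes with all 9 libraries. It lies on chromosome 10 from 102481756 to 102490486, minus strand, and encodes neurotensin and neuromedin N, peptides known to reduce feeding and body temperature. It was 8.89, 12.9, 11.2, 11.6 and 14.8 CPM in KO mice 2, 4, 6, 8 and 10, and 14.3, 15, 12.4 and 15.3 CPM in WT mice 1, 3, 9 and 11. KO replicates 2, 6 and 8 were below each WT library, whereas replicate 4 was above WT replicate 9 and replicate 10 lay among the WT values. The means were 11.9 ± 2.18 CPM (SD, n = 5) for KO against 14.3 ± 1.3 CPM (SD, n = 4) for WT. The log2 difference was -0.28 (SE 0.14, 95% interval -0.59 to 0.037, limma unadjusted p = 0.0789 and adjusted p = 0.794, exact permutation p = 0.111). Without replicate 10 it was -0.36 (limma unadjusted p = 0.0139 and adjusted p = 0.306), and without KO replicate 2 it was -0.18. The smallest p without replicate 10 was that of Tac1 (limma unadjusted p = 0.00708).
Ntsr1, the high-affinity neurotensin receptor, was also below WT on average, at 23.7, 24.4, 23.4, 24.4 and 17 CPM in KO mice 2, 4, 6, 8 and 10, and 24.2, 25.2, 28.1 and 33.5 CPM in WT mice 1, 3, 9 and 11. The groups met at 24.2 to 24.4 CPM, where KO replicates 4 and 8 lay above WT replicate 1. Its log2 difference was -0.30 (SE 0.13, limma unadjusted p = 0.0438 and adjusted p = 0.759, exact permutation p = 0.0476), and -0.20 without replicate 10 (limma unadjusted p = 0.061). Ntsr2 had a log2 difference of 0.0045, and 0.082 without replicate 10. For Sort1, the sorting receptor sortilin that also binds neurotensin, it was -0.10, and -0.046 without replicate 10. An adjusted p under 0.05 was reached by none of the 3.

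Adcyap1 (ENSMUSG00000024256) encodes PACAP, which is strongly expressed in the ventromedial and paraventricular hypothalamus. It is a plus-strand gene of chromosome 17 between 93199017 and 93206537, and that chromosome also carries Clic1, which starts at 35049966. It was 104, 116, 108, 113 and 109 CPM in KO mice 2, 4, 6, 8 and 10, and 123, 106, 129 and 114 CPM in WT mice 1, 3, 9 and 11. WT replicates 1 and 9 were above each KO library, and WT replicate 3 was below all KO libraries but replicate 2. The means were 109.9 ± 4.78 CPM (SD, n = 5) and 118 ± 10.1 CPM (SD, n = 4). The estimated log2 difference was -0.099 (SE 0.071, 95% interval -0.25 to 0.055, limma adjusted p = 0.855, exact permutation p = 0.19), the narrowest interval of the 9 genes, and leaving out replicate 10 left it at -0.098. It was -0.053 without WT replicate 9. Adcyap1r1, the PACAP receptor and the most abundant receptor gene here by CPM, was at 328 ± 33 CPM (SD, n = 5) for KO against 334 ± 13 CPM (SD, n = 4) for WT, a log2 difference of -0.029 that became 0.018 without replicate 10. Vipr1 and Vipr2, which bind PACAP and VIP alike, had log2 differences of -0.35 and 0.10, the former at 0.89 to 1.79 CPM (exact permutation p = 0.0476, limma adjusted p = 0.857), and Vip itself had 0.44 (limma adjusted p = 0.79). Vip was 19.7 CPM in replicate 10 against at most 13 CPM in the other libraries, and its log2 difference was 0.28 without replicate 10 and 0.058 with replicate 10 as WT.

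Cck varied the most among KO mice. The gene (ENSMUSG00000032532), on chromosome 9 from 121489824 to 121495694, minus strand, encodes cholecystokinin, a satiety peptide of the gut that is also made in the brain. Its CPM was 12.1, 18.2, 13.4, 20.5 and 25.5 in KO mice 2, 4, 6, 8 and 10, and 22.1, 19.3, 21.9 and 17.5 in WT mice 1, 3, 9 and 11. KO replicates 2 and 6 were below all WT libraries, KO replicates 4 and 8 within the WT range and KO replicate 10 above it. The coefficient of variation was 30.3% in KO and 10.9% in WT mice, while counting alone gives 11.7% in the library with the fewest Cck reads. The log2 difference was -0.22 (SE 0.19, 95% interval -0.64 to 0.21, limma adjusted p = 0.87, exact permutation p = 0.397), and -0.36 without replicate 10 (limma unadjusted p = 0.0317 and adjusted p = 0.403). It moved towards 0 without KO replicate 2 (-0.089) or KO replicate 6 (-0.13), the lowest libraries.
Cckbr, the main cholecystokinin receptor of the brain, lay on the other side. It was 16, 15.9, 16.1, 14.5 and 9.89 CPM in KO mice 2, 4, 6, 8 and 10, and 13.5, 10.7, 7.3 and 12.8 CPM in WT mice 1, 3, 9 and 11. KO replicates 2, 4, 6 and 8 were above each WT library and replicate 10 was below all WT libraries but replicate 9. The log2 difference was 0.40 with 5 KO mice (SE 0.20, limma adjusted p = 0.786) and 0.53 without replicate 10 (limma unadjusted p = 0.00481 and adjusted p = 0.209, exact permutation p = 0.0286, the smallest that 4 against 4 libraries allow). Without replicate 10, separated groups were found for 6.06% of all genes. Cckar had a log2 difference of -0.19 (limma adjusted p = 0.88).

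Nucb2 (ENSMUSG00000030659), on chromosome 7 from 116504369 to 116540584, plus strand, encodes nucleobindin 2, a calcium-binding protein from which the satiety peptide nesfatin-1 is cut. It was 22.5, 21.4, 23.6, 23.8 and 33.1 CPM in KO mice 2, 4, 6, 8 and 10, and 23.1, 22.2, 24.6 and 22.2 CPM in WT mice 1, 3, 9 and 11. All libraries but replicate 10 lay between 21.4 and 24.6 CPM, and replicate 10 was above them. For Nucb2 the log2 difference was 0.096 (SE 0.12, 95% interval -0.17 to 0.36, limma adjusted p = 0.903, exact permutation p = 0.667) and -0.011 without replicate 10. Nucb1, the paralogue, was 139 ± 23.7 CPM (SD, n = 5) for KO against 120 ± 3.21 CPM (SD, n = 4) for WT, a log2 difference of 0.20 (limma adjusted p = 0.791), and its highest library was also replicate 10, at 179 CPM. For Nucb1 this became 0.11 without replicate 10 and -0.010 with replicate 10 as WT. Nesfatin-1 has no agreed receptor, so none was listed.

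**Figure D2:**
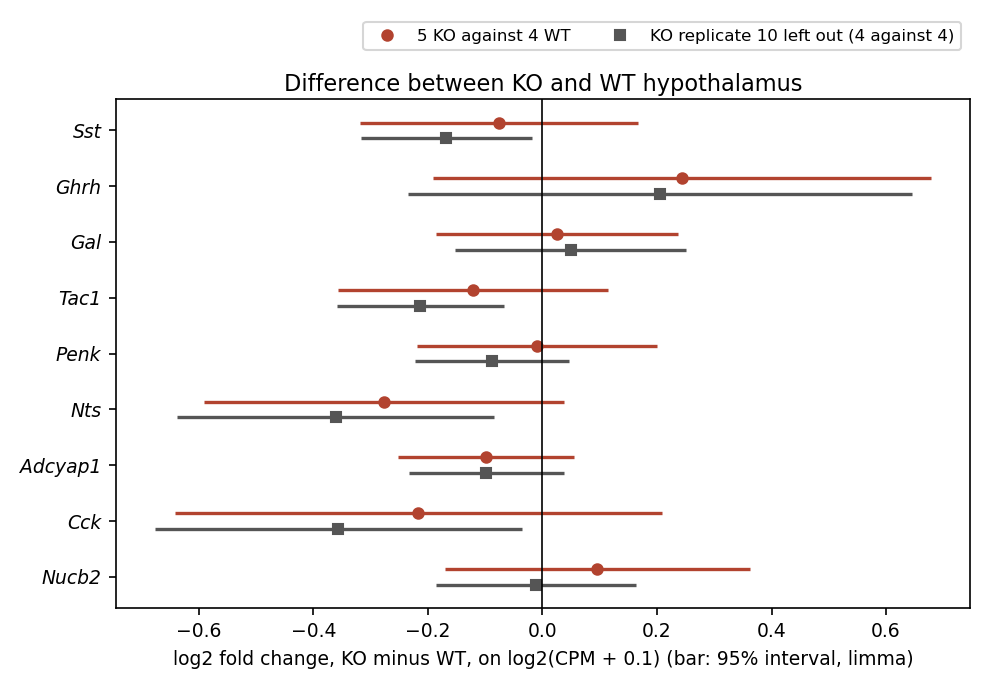
Log2 difference of KO minus WT on the log2(CPM + 0.1) scale (horizontal axis) with its 95% interval from limma, for all 9 libraries (circles) and with KO replicate 10 left out (squares). With 9 libraries each interval includes 0. Without replicate 10, the highest KO library for these genes, the intervals of Sst, Tac1, Nts and Cck lie below 0, with adjusted p of 0.25 to 0.403.

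The receptors, related peptides and peptidases likewise held no call. Of 23 receptor genes listed, 21 were measured and 0 passed the adjusted threshold. At an unadjusted p of 0.05, 1 was higher (Sstr4) and 1 lower (Ntsr1), where 6.5% of all genes were called in either direction. Their median log2 difference was -0.048. Of 9 related peptide genes, 5 were measured and 0 passed at the adjusted or the unadjusted threshold, while Cort, Galp, Spx and Tac4 were not analysed here. The 12 peptidases that cut small peptides outside cells or in the cytosol, such as neprilysin (Mme), endothelin-converting enzymes (Ece1 and Ece2) and neurolysin (Nln), were all measured, and 0 passed at either threshold. They had log2 differences from -0.27 to 0.44, with 6 above and 6 below 0. Without replicate 10 these ran from -0.20 to 0.71, with 5 above and 7 below 0. Without replicate 10, when 10.5% of all genes had an unadjusted p under 0.05, this was so for 1 receptor (Cckbr), for no related peptide and for 1 peptidase (Anpep), and again none passed after adjustment.

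Leaving out replicate 10 changed the picture at the unadjusted level. With 4 KO mice, 4 of the 9 members (Sst, Tac1, Nts and Cck) had an unadjusted p under 0.05, all lower in KO mice, whereas 4.96% of all genes were lower at that threshold. None reached an adjusted p of 0.05, against 0.606% of all genes, and the groups still overlapped in 9 of 9 members. With replicate 10 counted as WT, as its title reads, the same 4 members were lower at an unadjusted p of 0.05 (2.97% of all genes). Their adjusted p was 0.624 to 0.702 from limma. That grouping goes against the Clic1 level of replicate 10, which was 1.43 CPM. It lay inside the KO range of 0.733 to 1.93 CPM and below the WT range of 3.58 to 5.52 CPM. These are 3 groupings of the same mice, and none is independent of the others. Replicate 10 was the highest KO library for Sst, Tac1, Nts and Cck. Leaving it out or moving it to WT could therefore only lower their log2 differences. The count of 4 is thus no support for a lower level in KO mice.

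Replicate 10 stood apart from the other libraries, and not in the peptide genes alone. Its highest Spearman correlation with another library was 0.965, whereas each other library reached 0.991 or more. Replicate 10 was the highest of the 9 libraries for 5 of 9 members. Over all genes it was the highest for 30.1% and the lowest for 28.3%. It was the lowest library for none of the members. For the receptors the direction was opposite, since replicate 10 was the lowest library for 12 of 21, Oprm1 with 18.7 CPM against 31 to 40.1 CPM among them, and the highest for 2. Of the 5 related peptide genes it was the highest library for 3, Vip and Nucb1 among them, and of the 12 peptidases it was the highest for 5 and the lowest for 5. The median deviation of replicate 10 from the median of the other 8 libraries was 0.36 (log2) over the members and -0.31 over the receptors, and 0.00087 over all genes. In each of the remaining libraries the median deviation of the members was between -0.14 and 0.17.
Transcript length moved with this pattern. Among genes averaging 5 CPM or more, replicate 10 was the highest library for 44.6% of those in the shortest quintile by longest transcript (216 to 2243 bases) and for 21.3% of those in the longest quintile. It was the lowest for 19.9% of the shortest and 44.2% of the longest. The longest transcripts of the members had a median of 1248 bases, and 8 of 9 fell in the shortest quintile, all but Adcyap1 with 3392 bases. Replicate 10 was the highest library for 5 of these 8, against the 44.6% of all genes in that quintile. Over those genes its median deviation was 0.20 (log2), nearer to that of the members than the value over genes of all lengths. The receptors had a median of 3230 bases. The part of length in the values of replicate 10 was not tested. Markers of the hypothalamus, of other brain regions and of cell types were summed for the same libraries. The hypothalamic list, which includes Avp, had its highest sum in replicate 10, at 886 CPM. It summed to 737 to 876 CPM in the other KO libraries and 676 to 714 CPM in WT libraries. Neuronal markers summed to 6523 CPM in replicate 10, above the 6104 to 6391 CPM of the other KO libraries and within the 6040 to 6881 CPM of WT. Striatal markers, from a region rich in Penk and Tac1, summed to 186 CPM in replicate 10 against 223 to 225 in the other KO libraries and 210 to 241 in WT libraries, and thalamic markers to 233 CPM against 258 to 313 in the other 8. Markers of cortex and hippocampus, both rich in Cck and Sst, summed to 17.2 CPM (6 of 8 listed genes measured, with Slc17a7 and Emx1 not analysed here) in replicate 10, within the 15.8 to 22.4 CPM of the others. Astrocyte and ependymal markers had their highest sums in replicate 10, at 2820 and 75.3 CPM, and oligodendrocyte markers their lowest, at 3501 CPM. The part of these regions and cell types in the peptide values was not tested.

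**Figure D3:**
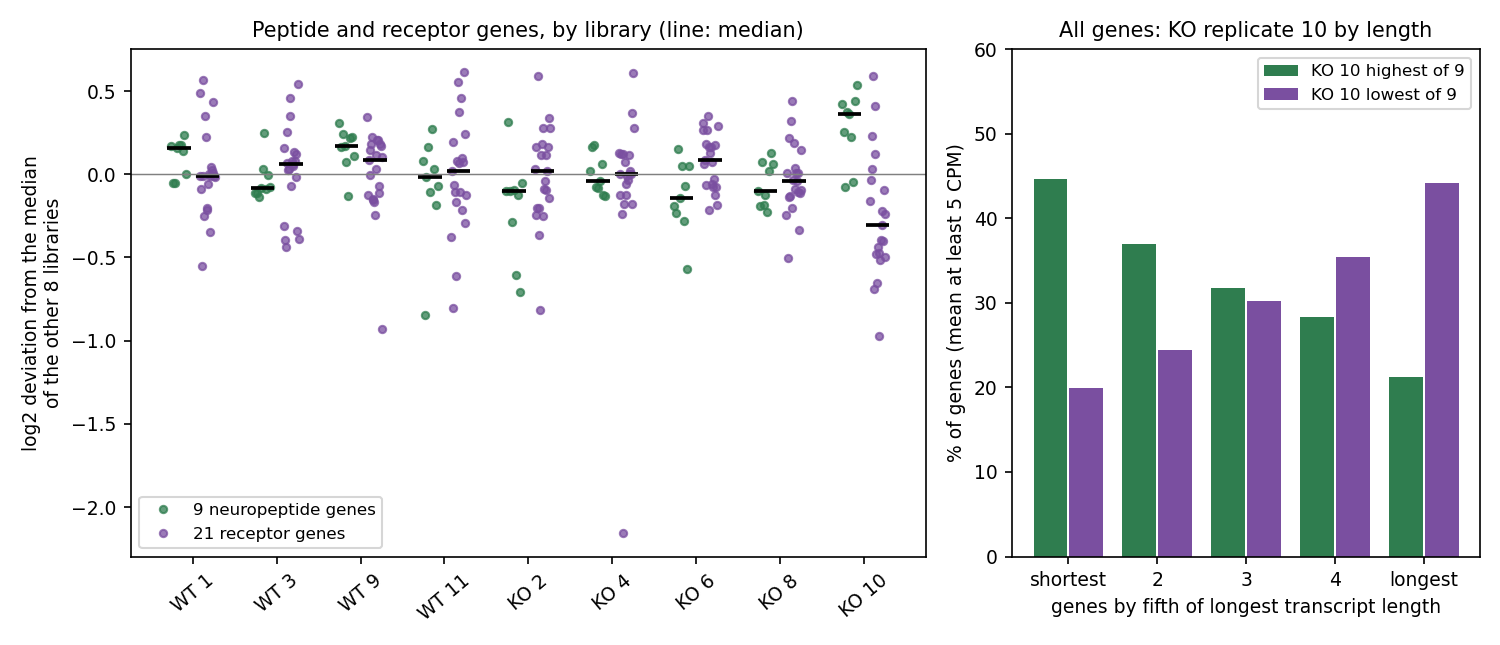
Left, log2 deviation of each neuropeptide gene (green) and receptor gene (purple) from the median of the other 8 libraries, by library, with the median as a line. Right, the percentage of all genes averaging 5 CPM or more for which KO replicate 10 is the highest or lowest library, by quintile of longest transcript length. Replicate 10 is the library in which members are high (median 0.36) and receptors low (median -0.31), and its share of highest values falls from 44.6% in the shortest to 21.3% in the longest quintile.

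Sequences before the starts of the members were read in the RefSeq promoter table, whose build is GRCm38.p6. Of the 9 members, 8 were matched, all but Penk. The 250 bases upstream of each start were searched on both strands for the cyclic AMP response element, TGACGTCA, which reads the same on both strands. They were also searched for the shorter variant TGCGTCA and its reverse complement, neither of which lies within the full element. The 8 members had 10 promoters in the table. Sst, Cck and Tac1 each held 1 match and the other 5 members held none. The full element was found in 1.55% and the variant in 1.75% of the 32851 promoters of the table. The stretches are shown because these 3 genes are also among the 5 with their highest value in replicate 10, with 30 bases each, 5′ to 3′ on the strand of the gene, and the motif in capitals.
Sst: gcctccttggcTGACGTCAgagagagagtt
Cck: tcctgctggacTGCGTCAgcactgggtaaa
Tac1: ttccctaaaatTGCGTCAtttcgaacacaa
The Sst stretch is chr16:23890874-23890903 (minus strand), with the motif beginning 48 bases before the RefSeq start. GENCODE starts Sst 114 bases further upstream, so the stretch lies in its first exon. The Cck stretch is chr9:121495725-121495754 (minus strand), with the motif 49 bases before the start. The Tac1 stretch is chr6:7554851-7554880 (plus strand), with the motif 199 bases before the RefSeq start, and its last bases overlap the first exon that GENCODE gives. Nucb2 was also highest in replicate 10 and held no match, and Penk, highest there too, could not be searched. The stretches were picked after the values of replicate 10 were seen, and a link between motif and level was not tested. The letters alone do not show that a factor is bound there.

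Levels were compared between genes per kilobase (kb) of exon, since CPM grows with transcript length. Divided by the union of annotated exons, Sst was the most abundant of the 9, at 146 ± 19.4 CPM per kb (SD, n = 9), without overlap with the next gene. Penk followed at 37.5 ± 3.9, Adcyap1 at 30 ± 2.18 and Gal at 28.6 ± 2.36 CPM per kb, and neighbours among these 3 overlapped in range. The lower group was Cck at 14.5, Tac1 at 14.3, Nts at 10.4, Nucb2 at 10.3 and Ghrh at 8.91 CPM per kb, where each gene overlapped the next. Cck and Tac1 changed order between libraries, with Cck above Tac1 in 6 of 9, and so did Nts and Nucb2, with Nts above in 4 of 9. With the longest transcript as length, Sst, Penk, Adcyap1 and Gal kept their ranks. Tac1 (24.6 CPM per kb) moved above Cck (23.7), and Nucb2 (12.6) and Ghrh (11.5) moved above Nts (10.4).

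**Figure D4:**
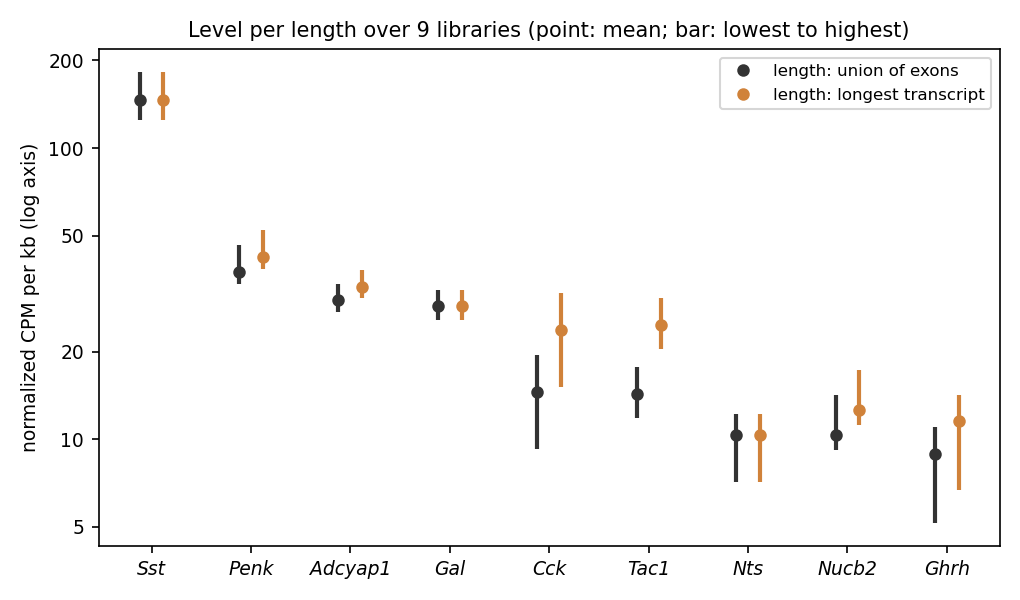
Normalized CPM per kb of the 9 genes on a log axis, as mean (point) and lowest to highest library (bar) over 9 libraries, with the union of exons (dark) or the longest transcript (orange) as gene length. Sst stands at 146 CPM per kb, above Penk at 37.5 with the union of exons, and each of the 5 lowest genes overlaps the next in order.

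Cck, Nts and Ghrh varied by an SD of at least 0.2 (log2) over the 9 libraries with a mean of at least 5 CPM. Their nearest genes by pattern were sought among 12071 other genes at that level, by the root mean square difference of log2 values after subtraction of each gene's mean. For Cck (SD 0.34) the nearest were Actn2, Trappc2l and C330018D20Rik, with differences of 0.083, 0.103 and 0.125. For Nts (SD 0.25) they were Atp13a4, Zfp109 and Zfp617, with 0.109, 0.113 and 0.116. For Ghrh (SD 0.32) they were Ccsap, Cdk5rap1 and Ufc1, with 0.143, 0.15 and 0.153. With so many genes searched over 9 libraries, close matches are a description of these libraries only.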

How the data were processed

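RNA sequencing of hypothalamus from 5 KO and 4 WT mice was analysed. The authors trimmed reads (Trimmomatic 0.38), aligned them to GRCm38.p6 (STAR 2.5.1a), estimated counts with RSEM 1.3.0, removed genes without at least 1 CPM in at least 5 samples and applied TMM factors. The signal that was deposited is normalized CPM made by the authors, and 1 column that matched no sample was not used. The authors' table of fold changes and p-values served only to pair identifiers with symbols. Low CPM values fell on whole reads for 81.3% to 86.5% of values up to 2.5 CPM (within 0.03 reads), too few to recover counts, so read totals are approximate.

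Values were fitted as log2(CPM + 0.1) with limma 3.58.1 in R 4.3.3 (intensity trend, condition only) over 14351 genes, in place of the limma-voom that the authors ran on counts. Fold changes on this scale understate those of low genes. Exact permutation tests were two-sided and on mean log2 values (scipy 1.17.1). Intervals are 95% intervals from limma. Gene positions and lengths came from GENCODE M21. The fit was tested on simulated data. The members, lists and alternatives were chosen with earlier results of these data known, so they are no independent support. Genes named were the members, Clic1, receptors with a mean of at least 1 CPM, other listed genes with an unadjusted p under 0.05 and, for variable members, the 3 genes of nearest pattern. Others named as examples were chosen after their values were seen. Nothing in the labels says more of the mice than 1 library each, so p-values measure the spread between these libraries.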

Additional observations from a re-analysis of the deposited data

Results flagged for a closer look

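Values far from the rest of their group were found in 8 of 62 groups of libraries tested over members, receptors and Clic1. Chance alone would give 3.1, but the groups share the same 9 libraries, so the 8 cannot be read as an excess among these genes. Of the 8, 5 were KO replicate 10, which was the highest library for 30.1% and the lowest for 28.3% of all genes. In that library Sst was 132 CPM against 89.9 to 101 in the other KO libraries, Penk 75.7 against 55.7 to 61 and Nucb2 33.1 against 21.4 to 23.8. Ntsr1 was 17 CPM against 23.4 to 24.4, and Cckbr 9.89 against 14.5 to 16.1. The remaining 3 were in other libraries. Tac1 was 46.4 CPM in WT replicate 3 against 52 to 52.3 in the other WT libraries, Sstr5 was 2.53 CPM in WT replicate 1 against 1.65 to 1.76, and Cckar was 8.57 CPM in KO replicate 4 against 4.95 to 5.47.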

How the results depend on the processing

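No member passed an adjusted p of 0.05 in any of the 18 alternatives, with adjusted p from 0.203 (Nts, sample weights) to 0.999 in limma. The count of members with an unadjusted p under 0.05 was 0 in the main fit. It was 4 with sample weights, a fit of all 9 libraries in which 135 of all genes passed the adjusted threshold, against 41 in the main fit. The share of all genes at the unadjusted threshold is not given for that fit. The count was also 4 with replicate 10 as WT and without KO replicate 10, where 2.97% and 4.96% of all genes were lower in KO at that threshold. It ranged from 0 to 4 as each mouse was left out. Of 162 log2 fold changes of members, 154 kept their direction and side of the threshold and 8 turned sign, none past it. As each mouse was left out, Gal ranged from -0.019 to 0.093 (below 0 without KO replicate 4 or WT replicate 3), Penk from -0.088 to 0.030 and Nucb2 from -0.011 to 0.15, and Nucb2 was -0.12 with replicate 10 as WT. The others kept their sign, with Sst from -0.17 to -0.014, Tac1 from -0.21 to -0.069, Nts from -0.36 to -0.18, Adcyap1 from -0.15 to -0.053, Cck from -0.36 to -0.089 and Ghrh from 0.041 to 0.35. Receptors, related peptides and peptidases had 0 genes past the threshold in each alternative. All genes past the threshold numbered 41, and 27 among genes averaging 5 CPM or more, 135 with sample weights, 5 with replicate 10 as WT and 18 to 87 as each mouse was left out, the cause of which was not tested. With the longest transcript as length, 4 of 9 members kept their rank by level. Clic1 had a log2 difference of -1.80, and lost its call with replicate 10 as WT (-1.51, adjusted p = 0.501 from limma) and without WT replicate 1, 3 or 9 (-1.73, -1.80 and -1.74, adjusted p of 0.0893, 0.0826 and 0.0702). No paired analysis was possible because the labels do not give the litter of each mouse or pair KO with WT mice. Under 10 reads stood behind the lowest library of Galr2, Galr3, Vipr1 and Sstr5, and 25 behind that of Ghrh, the member with the fewest.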
